A study of Mus musculus with 6 samples.

Results

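The genes described here encode protease inhibitors that the liver releases into blood. They were chosen by name: 5 alpha-1-antitrypsin genes (Serpina1a, Serpina1b, Serpina1c, Serpina1d and Serpina1e), 2 related serpin genes (Serpina3k and Serpina3n) and 3 alpha-macroglobulin genes (the murinoglobulins Mug1 and Mug2, and Pzp). These are 10 of the 24411 gene symbols in the deposited table, and all 10 passed the filter on low counts that left 5945 genes for testing. The lowest estimated count of any of them in any library was 15.15, that of Serpina1e in p62S351E/+ mouse 1. The libraries were made from whole liver at postnatal day 19 (P19), from 3 p62+/+ mice and from 3 p62S351E/+ mice. The p62S351E/+ mice carried 1 wild-type Sqstm1 allele (Sqstm1 encodes p62) and 1 allele in which Ser351 was replaced by Glu, which mimics phosphorylation of that serine. The p62+/+ mice carried 2 wild-type alleles. The knock-in allele was made by prime editing in RENKA4, a mouse embryonic stem cell line of C57BL/6N origin, and the heterozygotes were obtained by in vitro fertilization with sperm of a single male chimera of low chimerism. The allele therefore came from 1 founder. It is carried by all cells of the animal and is not restricted to hepatocytes, and the sexes of the mice were not given in the sources used here.

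Serpins inhibit serine proteases by a suicide mechanism. The protease cuts an exposed reactive centre loop, and the serpin changes shape and traps the enzyme as a covalent complex. Human alpha-1-antitrypsin, the main inhibitor of neutrophil elastase in plasma, is encoded by a single gene, whereas the mouse carries a cluster of near-identical copies whose reactive centre loops differ. Alpha-macroglobulins instead offer a bait region to proteases of many classes and enclose the protease once the bait is cut, and the complexes are taken up through the receptor LRP1. Hepatocytes are the main source of both groups in plasma. Serpina3n is known as an acute-phase gene in liver and is also made by astrocytes.

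Total estimated counts per library lay between 8696712 and 10341622, but Rn45s, Lars2 and Mir6236 took nearly all of them, and between 134911 and 315436 counts were left for all other genes. The 10 inhibitor genes made up between 1.51% and 2.88% of that remainder. Hepatocyte markers (10 genes, Alb and Ttr among them) were abundant in every library, at 8771 to 21383 estimated counts summed. Markers of brain (10 genes, Snap25 and Gfap among them) summed to 2378, 2488 and 2150 counts in the p62+/+ mice and to 2305 counts in p62S351E/+ mouse 3, but to 19 and 31 counts in p62S351E/+ mice 1 and 2. These last libraries stand apart from the other 4, so results are given below also without them. After scaling, summed hepatocyte markers lay between 11085 and 12182 normalized counts in p62+/+ mice and at 16702, 26940 and 11993 in p62S351E/+ mice 1, 2 and 3. Neutrophil markers, from cells that carry the main target proteases of alpha-1-antitrypsin, had at most 5 counts in any library. Xist had 70.8, 1505 and 1071 counts in p62+/+ mice, against 1, 0 and 1537 in p62S351E/+ mice. Within the p62S351E/+ group, Xist and brain-marker counts were low in the same mice, 1 and 2, so they cannot be told apart there. Sqstm1, whose alleles the counts cannot tell apart and which therefore does not check the genotype, had between 73.0 and 105 normalized counts per mouse. In bulk liver, fewer hepatocytes and less RNA per hepatocyte cannot be told apart.

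The inhibitor genes are copies of each other, and reads that match several copies were divided among them by RSEM, the program that estimated the counts. Estimated counts that are not whole numbers show where this happened. All 6 values were not whole for Serpina1a, Serpina1c, Serpina1d, Serpina1e, Serpina3k, Serpina3n and Mug2, and 5 of 6 were not whole for Serpina1b, Mug1 and Pzp, against 6.45% of the nonzero values in the whole table. For Serpina3n no value was more than 0.03 from a whole number. For the other 9 genes the largest distance was between 0.31 and 0.5, the largest possible. In the GENCODE annotation of GRCm38, the build that mm10 names, 66.1% of the 75-base windows (the read length) of the Serpina1c transcript occurred letter for letter in a transcript of another gene. The share was 57.5% for Serpina1a, 37.1% for Serpina1d, 25.1% for Serpina1b and 20.3% for Serpina1e. It was 36.0% for Mug2, of which most matched the pseudogene Mug-ps1 (27.6% of the windows), and 15.9% for Mug1. Serpina3k shared 7.36% with Serpina3m, Serpina3n shared 1.46%, and Pzp shared none in this annotation, although 5 of its values were not whole. Values of single copies, above all of Serpina1a and Serpina1c and then of Serpina1d and Mug2, are therefore less certain than sums over copies, which do not depend on how reads were divided within the sum.

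The alpha-1-antitrypsin copies lie in a cluster on the minus strand of chromosome 12, and their coding sequences were between 96.3% and 98.5% identical in pairs. Of 1239 coding positions aligned in all 5 genes, 86 differed between at least 2 of the genes. Of these, 18 fell in the 60 bases printed here, which lie in the last exon and encode part of the reactive centre loop. The stretch is shown because it is where reads can tell the copies apart best and where the inhibitors differ in the loop that meets the protease. Sequences are written 5′ to 3′ on the strand of the gene (GRCm38, GENCODE), and capitals mark the positions that are not the same in all 5 genes.
Serpina1a (chr12:103853757-103853816, minus strand): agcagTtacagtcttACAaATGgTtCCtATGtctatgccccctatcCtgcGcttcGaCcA
Serpina1b (chr12:103728324-103728383, minus strand): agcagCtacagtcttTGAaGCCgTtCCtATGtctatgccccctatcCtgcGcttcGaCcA
Serpina1c (chr12:103895094-103895153, minus strand): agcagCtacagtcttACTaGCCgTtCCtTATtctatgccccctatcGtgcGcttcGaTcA
Serpina1d (chr12:103763762-103763821, minus strand): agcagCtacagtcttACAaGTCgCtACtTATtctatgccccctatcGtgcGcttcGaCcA
Serpina1e (chr12:103947100-103947159, minus strand): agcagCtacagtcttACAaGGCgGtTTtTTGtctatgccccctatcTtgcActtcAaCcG

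Mug1 and Mug2 lie on the plus strand of chromosome 6, Mug1 from 121838541 to 121889057 and Mug2 from 122006761 to 122085965 (GENCODE, GRCm38). Their coding sequences were 95.1% identical and differed at 212 positions, whereas Pzp, on the minus strand of the same chromosome from 128483567 to 128526720, was 61.5% identical to Mug1 and 61.4% to Mug2. The densest run of differences between the murinoglobulins, 19 in 60 bases, fell in exon 18 of both genes, in the stretch where alpha-macroglobulins carry the bait region. It is printed with the differing positions in capitals.
Mug1 (chr6:121873620-121873679, plus strand): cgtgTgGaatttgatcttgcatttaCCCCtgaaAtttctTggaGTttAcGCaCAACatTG
Mug2 (chr6:122063560-122063619, plus strand): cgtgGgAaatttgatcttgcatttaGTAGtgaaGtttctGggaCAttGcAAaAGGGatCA

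Mug2 was the only one of the 10 genes that changed at the thresholds used, an adjusted p below 0.05 together with more than 1 log2 unit of change in edgeR's quasi-likelihood test. It fell 4.40-fold in p62S351E/+ mice, while Serpina3n, Pzp and 3 of the 5 alpha-1-antitrypsin genes had higher means than in p62+/+ mice without passing the test, and Serpina1c differed by 0.0023 on the log2 scale. Over all 5945 genes tested, 0.925% were called in either direction, 0.841% as higher (50 genes) and 0.0841% as lower (5 genes). The median log2 fold change of the 10 genes was 0.11, with 6 above 0, against -0.03 for all genes tested. Every p62S351E/+ mouse was above every p62+/+ mouse for Serpina1b and Serpina3n and below for Mug2, which makes 3 of 10 genes without overlap in either direction against 26.7% of all genes tested. All 10 genes are shown by mouse in the plot of normalized counts, in which an estimated count is divided by its library's scaled size.

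**Figure D1:**
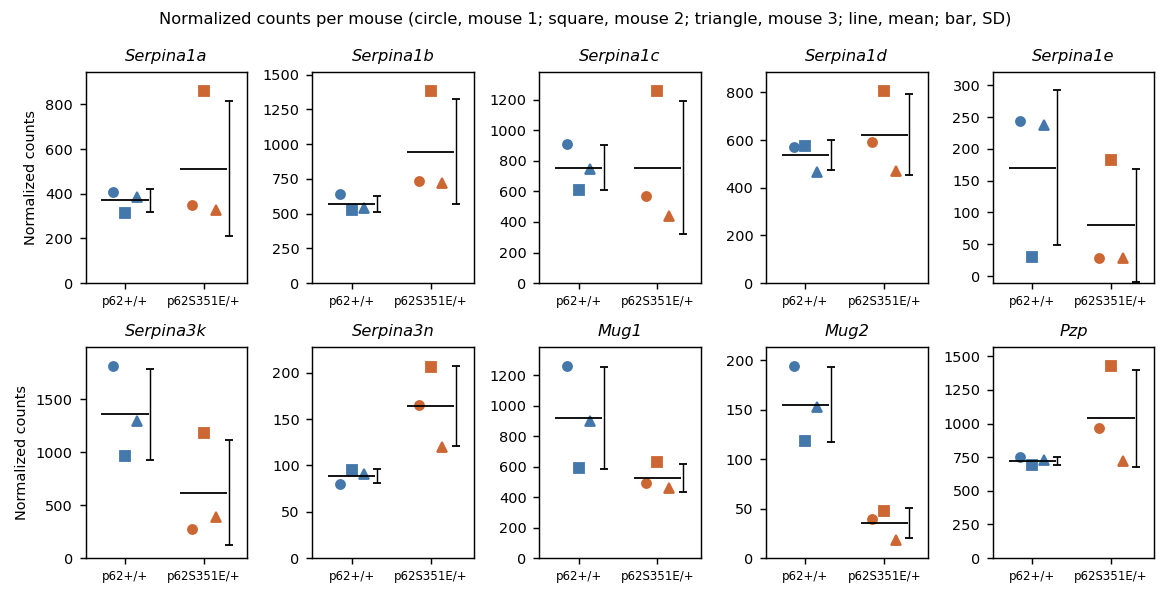
Normalized counts of the 10 inhibitor genes in each mouse (vertical axes, linear, 1 scale per gene), with p62+/+ mice at left and p62S351E/+ mice at right. Circles, squares and triangles are mice 1, 2 and 3, lines are means and bars are SD (n = 3 each), and the lower end of a bar can pass 0. All 3 p62S351E/+ mice lie below all 3 p62+/+ mice for Mug2, and p62S351E/+ mouse 2 is the highest p62S351E/+ mouse for all 10 genes.

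Among the alpha-1-antitrypsin genes, Serpina1b came nearest to a difference between the genotypes. It had 639, 529 and 540 normalized counts in p62+/+ mice 1, 2 and 3 and 739, 1382 and 721 in p62S351E/+ mice 1, 2 and 3. The groups did not overlap, with p62S351E/+ mouse 2 far above all other mice. Here and below, a log2 fold change of p62S351E/+ against p62+/+ mice (log2FC) is given with its standard error (SE). The means were 569 ± 60.7 and 947 ± 377 (SD, n = 3 per genotype), a log2FC of 0.73 ± 0.29 (SE) with an adjusted p of 0.310 (edgeR's quasi-likelihood test, Benjamini-Hochberg). With library size as the only scaling the log2 fold change was 0.05, and without p62S351E/+ mice 1 and 2 the remaining p62S351E/+ mouse still lay above all p62+/+ mice in normalized counts.

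Serpina1a had 410, 314 and 387 normalized counts in p62+/+ mice, against 352, 859 and 326 in p62S351E/+ mice. Mouse 2 of the p62S351E/+ group was high and the other mice lay within or near the p62+/+ range, so the groups overlapped. Its log2FC of 0.47 ± 0.38 (SE; edgeR adjusted p = 0.566) turned negative under library size alone, hepatocyte-marker scaling and an Xist covariate, and without p62S351E/+ mice 1 and 2.

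Serpina1c, the alpha-1-antitrypsin copy with the most counts in p62+/+ mice, had 909, 612 and 745 normalized counts there and 572, 1256 and 440 in p62S351E/+ mice. The highest and the lowest value were both from p62S351E/+ mice. The means of 755 ± 149 and 756 ± 438 (SD, n = 3 per genotype) were nearly equal, but the standard error of the log2 fold change was 0.39, which limits how small a difference could have been detected. Serpina1d had 571, 577 and 467 normalized counts in p62+/+ mice, against 590, 805 and 470 in p62S351E/+ mice, with a log2FC of 0.21 ± 0.25 (SE; edgeR adjusted p = 0.692). Both genes changed sign under some scalings.

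Serpina1e varied most from mouse to mouse. It had 244, 30.5 and 238 normalized counts in p62+/+ mice, against 28.8, 183 and 27.8 in p62S351E/+ mice. Values fell into a low range in p62+/+ mouse 2 and p62S351E/+ mice 1 and 3 and a high range in the other 3 mice, so each genotype held mice of both ranges. Its log2 fold change of -1.09 had a standard error of 1.08 (adjusted p = 0.637, edgeR). Single mice moved it widely: it was -2.58 without p62S351E/+ mouse 2, -1.58 without p62+/+ mouse 2, and between -0.77 and -0.68 without any other mouse. It was -2.34 with an Xist covariate and -2.59 without p62S351E/+ mice 1 and 2. Brain markers were low in p62S351E/+ mice 1 and 2, and Xist was high in p62+/+ mice 2 and 3 and p62S351E/+ mouse 3. The part of either in the Serpina1e values was not tested.

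Summed over the 5 copies, alpha-1-antitrypsin had 2773, 2062 and 2376 normalized counts in p62+/+ mice, against 2281, 4485 and 1985 in p62S351E/+ mice. The sum was high in p62S351E/+ mouse 2, which also had the most hepatocyte marker counts, and was within or just below the p62+/+ range in the other p62S351E/+ mice. Its log2 fold change was 0.28 with a standard error of 0.33, and -0.26 ± 0.16 (SE) without p62S351E/+ mice 1 and 2. The part of hepatocyte content in these values was not tested.

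Serpina3k and Serpina3n, neighbours of the alpha-1-antitrypsin cluster on the plus strand of chromosome 12, went in opposite directions in their means. Serpina3k, a kallikrein-binding serpin, had 1812, 962 and 1297 normalized counts in p62+/+ mice, against 277, 1184 and 388 in p62S351E/+ mice. Mice 1 and 3 of the p62S351E/+ group lay below all p62+/+ mice, and mouse 2 lay within their range. The means were 1357 ± 428 and 616 ± 495 (SD, n = 3 per genotype), giving a log2FC of -1.14 ± 0.56 (SE; edgeR adjusted p = 0.407). Without p62S351E/+ mouse 2 it was -2.02 ± 0.31 (SE; edgeR adjusted p = 0.0547). Without any other single mouse it lay between -1.32 and -0.78 (edgeR adjusted p between 0.406 and 0.689).

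Serpina3n, an inhibitor of granzyme B, had 80.2, 95.5 and 90.7 normalized counts in p62+/+ mice, against 166, 207 and 120 in p62S351E/+ mice. Every p62S351E/+ mouse was above every p62+/+ mouse. The means were 88.8 ± 7.79 and 164 ± 43.3 (SD, n = 3 per genotype), giving a log2 fold change of 0.88 ± 0.25 (SE) that did not pass the test (adjusted p = 0.170, edgeR's quasi-likelihood test). It passed both thresholds in 1 of the 6 fits that left out a mouse, the one without p62S351E/+ mouse 3 (log2 fold change 1.07, adjusted p = 0.00287, edgeR). That fit set the p62S351E/+ mice with few brain-marker counts against p62+/+ mice with many, and it called 333 genes higher and 975 lower of 6390 tested. Without p62S351E/+ mice 1 and 2 it was 0.45 ± 0.23 (SE; edgeR adjusted p = 0.561).

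The sum of Serpina3k and Serpina3n, most of it Serpina3k, had a log2 fold change of -0.89 ± 0.46 (SE) and overlapping groups. Of the 9 other Serpina3 genes in the table only Serpina3m had enough counts for testing. It had 99.7, 106 and 99.7 normalized counts in p62+/+ mice, against 145, 182 and 123 in p62S351E/+ mice. The groups did not overlap, which held for 26.7% of all genes tested, and the log2FC was 0.56 ± 0.22 (SE; edgeR adjusted p = 0.301). Serpina3m shares sequence with Serpina3k, and reads could be divided between them.

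Mug2, a single-chain alpha-macroglobulin of mouse plasma, had 194, 118 and 152 normalized counts in p62+/+ mice, against 39.9, 48.1 and 18.3 in p62S351E/+ mice. The highest p62S351E/+ mouse lay below the lowest p62+/+ mouse, and the lowest value was that of p62S351E/+ mouse 3, a library rich in brain markers. In estimated counts before scaling these were 241.85, 152.64 and 176.42 in p62+/+ mice, against 20.96, 38.14 and 23.64 in p62S351E/+ mice. The means of 155 ± 37.9 and 35.4 ± 15.4 normalized counts (SD, n = 3 per genotype) gave a log2FC of -2.14 ± 0.37 (SE; adjusted p = 0.0411, edgeR's quasi-likelihood test with Benjamini-Hochberg adjustment).

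The direction of Mug2 was the same in each alternative tried, with log2 fold changes between -3.04 and -1.81, but the call was not. The adjusted p (edgeR) was 0.197 without p62+/+ mouse 1, 0.110 without p62+/+ mouse 2 and 0.141 without p62+/+ mouse 3. It was 0.147 without p62S351E/+ mouse 1 and 0.0640 without p62S351E/+ mouse 2, and 0.000473 without p62S351E/+ mouse 3, the fit in which 975 of 6390 genes were called lower. Without p62S351E/+ mice 1 and 2, where all 4 remaining libraries held brain transcripts, the log2 fold change was -3.04 ± 0.32 (SE) and the adjusted p 2.67e-07 (edgeR), a fit that takes the spread from the p62+/+ mice alone. With an Xist covariate the log2 fold change was -2.84 (adjusted p = 0.00160, edgeR). Xist was low in p62S351E/+ mice 1 and 2, so this fit and the fit without those mice are not separate checks. The adjusted p was 0.000331 with DESeq2 and 0.00211 with limma-voom.

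Mug1, the more abundant murinoglobulin, had 1260, 590 and 901 normalized counts in p62+/+ mice, against 491, 630 and 460 in p62S351E/+ mice. The groups overlapped, because p62+/+ mouse 2 was below p62S351E/+ mouse 2. The means were 917 ± 335 and 527 ± 90.9 (SD, n = 3 per genotype), giving a log2FC of -0.80 ± 0.30 (SE; edgeR adjusted p = 0.290). When genes needed at least 10 counts in every library, it passed both thresholds with a log2 fold change of -1.06 (adjusted p = 0.0159, edgeR). That fit called 70 genes higher and 29 lower of 2343 tested. The other inhibitor genes also had lower log2 fold changes in it, among them Mug2 at -2.43, Pzp at 0.25 and Serpina1c at -0.28. Leaving out 1 mouse gave log2 fold changes of Mug1 between -1.03 and -0.49 (edgeR adjusted p between 0.105 and 0.648).

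Pzp, the mouse alpha-macroglobulin made of several chains, had 748, 692 and 731 normalized counts in p62+/+ mice, against 963, 1427 and 724 in p62S351E/+ mice. The p62+/+ mice lay close together, p62S351E/+ mice 1 and 2 lay above them, and p62S351E/+ mouse 3 lay among them. The means of 724 ± 28.6 and 1038 ± 358 (SD, n = 3 per genotype) gave a log2FC of 0.52 ± 0.27 (SE; edgeR adjusted p = 0.414), which was -0.21 with library size alone, -0.11 with hepatocyte-marker scaling and 0.01 without p62S351E/+ mice 1 and 2.

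The sum of Mug1 and Mug2, which does not depend on how their shared reads were divided between them, was 1454, 708 and 1053 normalized counts in p62+/+ mice, against 531, 679 and 478 in p62S351E/+ mice. All p62S351E/+ mice were below all p62+/+ mice, with a log2 fold change of -0.93 ± 0.30 (SE). Mug-ps1, a pseudogene of the same cluster that shares reads with both, had 316, 138 and 186 normalized counts in p62+/+ mice, against 131, 88.3 and 76.3 in p62S351E/+ mice, and a log2FC of -1.12 ± 0.35 (SE; edgeR adjusted p = 0.223). With Mug-ps1 added to the sum, a choice made after seeing the data, the log2 fold change was -0.96 ± 0.30 (SE) and the groups still did not overlap. With Pzp added to Mug1 and Mug2 instead, it was -0.17 ± 0.28 (SE) and the groups overlapped.

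**Figure D2:**
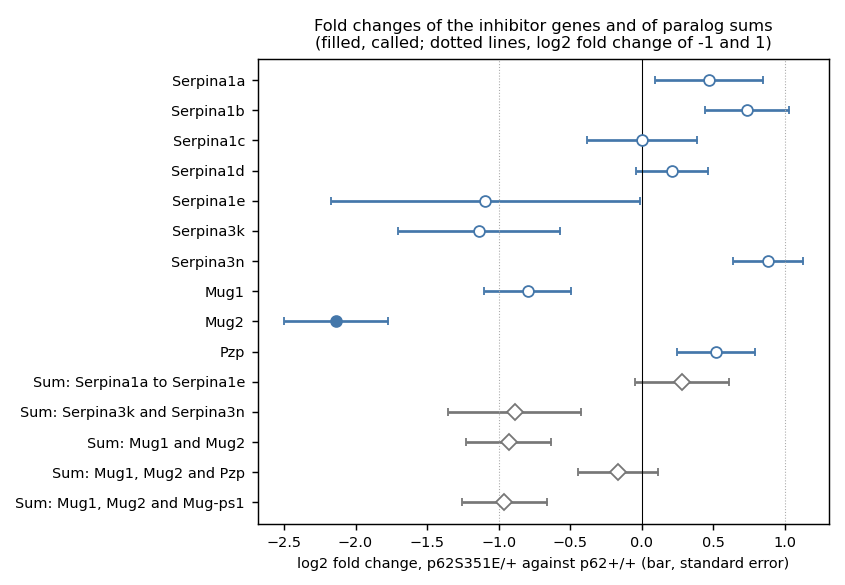
Log2 fold changes of p62S351E/+ against p62+/+ mice (horizontal axis; bars are standard errors; n = 3 mice each) for the 10 genes (circles) and for sums over copies (diamonds, not tested). Mug2 at -2.14 carries the only filled symbol, that of a called gene, and the positive values of Serpina1a, Serpina1c, Serpina1d, Pzp and the alpha-1-antitrypsin sum turn negative when library size is the only scaling.

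Shares of a copy in its family do not depend on the scaling of the libraries. Mug2 was 13.3%, 16.7% and 14.5% of the sum of Mug1 and Mug2 in p62+/+ mice, against 7.52%, 7.08% and 3.83% in p62S351E/+ mice. Its share was lower in 3 of 3 p62S351E/+ mice, with a difference of -8.70 percentage points between the means of 14.8 ± 1.72% and 6.14 ± 2.02% (SD, n = 3 per genotype). Pzp was 34.0%, 49.4% and 41.0% of the sum of Mug1, Mug2 and Pzp in p62+/+ mice, against 64.5%, 67.8% and 60.2% in p62S351E/+ mice, again without overlap.

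Within the alpha-1-antitrypsins, Serpina1b was 23.0%, 25.7% and 22.7% of the 5-gene sum in p62+/+ mice, against 32.4%, 30.8% and 36.3% in p62S351E/+ mice. Serpina1c was 32.8%, 29.7% and 31.3% in p62+/+ mice, against 25.1%, 28.0% and 22.2% in p62S351E/+ mice. For both copies the genotypes did not overlap, with Serpina1b higher and Serpina1c lower in p62S351E/+ mice, while the ranges of Serpina1a, Serpina1d and Serpina1e overlapped. These shares make up the whole sum, so a higher share of any copy means lower shares elsewhere. The normalized counts of Serpina1c itself averaged 755 and 756 in p62+/+ and p62S351E/+ mice. Serpina1a averaged 15.4% and 17.0%, Serpina1d 22.7% and 22.5%, and Serpina1e 6.76% and 2.25% in p62+/+ and p62S351E/+ mice. Single mice moved these differences: that of Serpina1a, 1.57 percentage points, was 0.49 without p62S351E/+ mouse 2 and 2.36 without p62S351E/+ mouse 1. The Serpina1e difference of -4.51 points was -7.15 without p62+/+ mouse 2 and -2.89 without p62+/+ mouse 3, and that of Serpina1d, -0.24 points, lay between -1.92 and 2.37 when 1 mouse was left out. Serpina3k was between 91.0% and 95.8% of the sum of Serpina3k and Serpina3n in p62+/+ mice, against 62.6% to 85.1% in p62S351E/+ mice.

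Over the 8 shares tested, an exact permutation test (two-sided) gave p = 0.1 for Mug2, Pzp, Serpina1b, Serpina1c and Serpina3k, the smallest that 3 mice against 3 can give, and 0.16 after adjustment over the 8 shares. It gave p = 0.2 for Serpina1a and Serpina1e (0.229 adjusted) and p = 1 for Serpina1d in the same exact test. No share could pass 0.05 in a design of this size. The shares are estimates, since the copies share sequence, and shares of the same sum depend on each other.

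**Figure D3:**
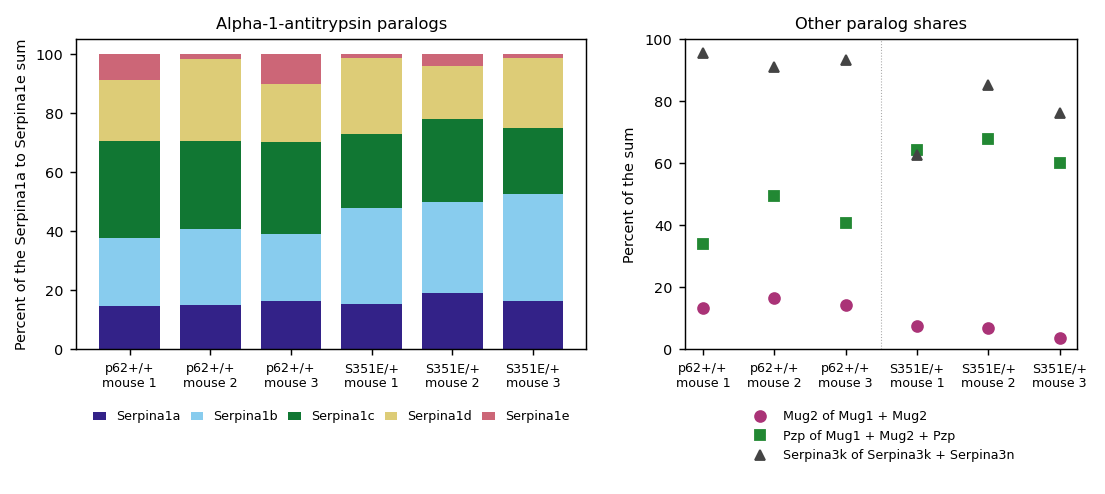
Left, share of each alpha-1-antitrypsin copy in the 5-gene sum (stacked bars, percent of normalized counts, 1 bar per mouse; S351E/+ stands for p62S351E/+); right, shares of Mug2, Pzp and Serpina3k in their sums (points, percent, 1 per mouse). The Serpina1b part runs from 22.7% to 25.7% in p62+/+ and from 30.8% to 36.3% in p62S351E/+ mice, and the Mug2 points run from 13.3% to 16.7% and from 3.83% to 7.52%.

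Levels of different genes were compared as normalized counts per kilobase of the longest coding GENCODE transcript. In p62+/+ mice the order ran from Serpina3k at 660 ± 208 normalized counts per kilobase (SD, n = 3) through Serpina1c at 555, Serpina1d at 386, Serpina1b at 323, Serpina1a at 234, Mug1 at 197, Pzp at 155, Serpina1e at 108 and Serpina3n at 43.0 to Mug2 at 33.8 ± 8.27. Neighbours in this order overlapped in their ranges over mice except Serpina1c and Serpina1d, and Serpina1b and Serpina1a. In p62S351E/+ mice Serpina1c was first at 556 ± 322 normalized counts per kilobase, followed by Serpina1b at 538, Serpina1d at 446, Serpina1a at 324, Serpina3k at 300, Pzp at 222, Mug1 at 113, Serpina3n at 79.5, Serpina1e at 50.6 and Mug2 at 7.74 ± 3.36. There the neighbours that did not overlap were Pzp and Mug1, and Serpina1e and Mug2. Mug2 had the lowest mean level per length in both genotypes, and Mug1 and Pzp exchanged places.

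The scaling of the libraries moved the fold changes of most of the 10 genes by similar amounts. With library size as the only scaling the median log2 fold change of all genes was -0.68, and with scaling to the hepatocyte markers it was -0.54, which left 12 genes called higher and 5 lower under the latter against 50 and 5. Relative to these medians, Mug2 was at -2.26 and -2.24 and Mug1 at -0.81 and -0.80, close to their values of -2.11 and -0.77 under the scaling used throughout. On the same relative scale Serpina3n was at 0.84 and 0.82, Pzp at 0.47 and 0.43, Serpina1b at 0.72 and 0.65 and Serpina1a at 0.44 and 0.31. Serpina1d was at 0.17 and 0.14, against 0.24. Serpina1c was at -0.06 and -0.16 relative to the medians, against 0.03 in the scaling used throughout. Serpina1e and Serpina3k moved most on this scale under hepatocyte-marker scaling. Serpina1e was at -1.18 with library size alone and -1.41 with hepatocyte markers, against -1.06, and Serpina3k at -1.14 and -1.34, against -1.11.

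**Figure D4:**
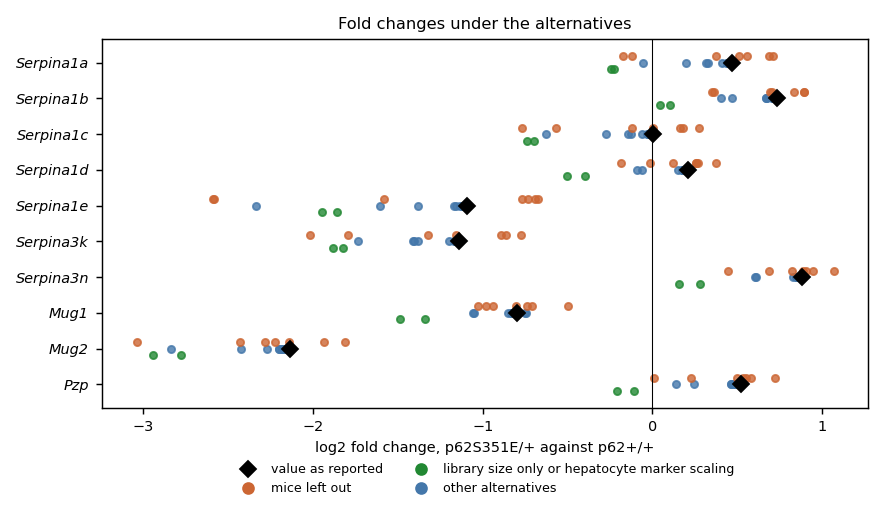
Log2 fold changes of p62S351E/+ against p62+/+ mice (horizontal axis) of the 10 genes under each alternative (points) beside the reported value (black diamond). Orange points leave out 1 or 2 mice, green points use library size alone or hepatocyte-marker scaling, and blue points are the other alternatives. Mug2 stays between -3.04 and -1.81, while Serpina1a, Serpina1c, Serpina1d and Pzp have points on both sides of 0.

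A list of 27 genes of plasma protease inhibitors and related plasma proteins, called plasma protease inhibitors below, gave a context for the 10. Of these 27 genes, not all of which encode inhibitors, 21 were tested, 2 rose and none fell, where 0.841% of all genes tested were called higher. A log2 fold change above 0 was found for 19 of the 21, against 2856 of all 5945 genes, and the median was 0.44 against -0.03. Hrg, histidine-rich glycoprotein, had 98.7, 117 and 111 normalized counts in p62+/+ mice, against 373, 495 and 342 in p62S351E/+ mice, and its log2FC was 1.89 ± 0.23 (SE; edgeR adjusted p = 0.00891). Fetub, fetuin-B, an inhibitor of the ovastacin protease, had 128, 107 and 97.6 normalized counts in p62+/+ mice, against 339, 317 and 272 in p62S351E/+ mice, and its log2FC was 1.48 ± 0.21 (SE; edgeR adjusted p = 0.0205). For both genes all p62S351E/+ mice were above all p62+/+ mice. The most abundant genes of the list did not pass the test: Ahsg (fetuin-A) had a log2 fold change of 0.56 ± 0.29 (SE) and Kng1 (kininogen) one of 0.97 ± 0.24 (SE).

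The other alpha-macroglobulin family genes did not pass the test either, with 4 of 8 listed genes tested. Of all genes tested, 0.925% were called in either direction. Besides Mug-ps1, the complement genes C3, at 0.82 ± 0.28 (SE), and C4b, at 0.73 ± 0.25 (SE), had the highest counts of this list. Neither gene overlapped between the genotypes, which held for 26.7% of all genes tested. None of 17 plasma serine proteases, which these inhibitors meet in blood, was called, against the same 0.925%. A list this short can easily hold no called gene at that share. The median log2 fold change of these proteases was 0.54. Among them Plg (plasminogen) was at 0.65 ± 0.22 (SE) and F2 (prothrombin) at 0.54 ± 0.29 (SE). The 4 neutrophil serine protease genes, among them the elastase gene Elane, had too few counts to be tested.

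Of 15 intracellular and tissue inhibitors, 7 were tested and none was called, against 0.925% of all genes tested. Their median log2 fold change was -1.41. Timp2, an inhibitor of matrix metalloproteases, had 63.4, 40.4 and 69.1 normalized counts in p62+/+ mice, against 5.71, 8.82 and 38.0 in p62S351E/+ mice, and Cast (calpastatin) had a log2 fold change of 0.48 ± 0.34 (SE). The low Timp2 values were those of the mice with few brain-marker counts, and the part of brain transcripts in the values of this list was not tested. Of 3 genes on the uptake of macroglobulin complexes, none was called, against the same 0.925%, and the receptor gene Lrp1 was at 0.11 ± 0.23 (SE).

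None of 11 genes for the folding, export and degradation of alpha-1-antitrypsin in the secretory pathway was called, against 0.925% of all genes tested. Their median log2 fold change was 0.60. The chaperone gene Hspa5, which encodes BiP and is also listed with the receptor, was at 0.96 ± 0.45 (SE), and the lectin chaperone gene Calr at 0.08 ± 0.35 (SE). Of 14 listed genes of transcription factors and of cytokine or growth hormone signalling, 11 were tested and none was called, against the same 0.925%. Their median was 0.05, and whether they act on the promoters of the 10 genes was not tested. Hnf4a, a hepatocyte nuclear receptor, was at 0.73 ± 0.24 (SE) with no overlap between the genotypes, as were 26.7% of all genes tested. Ghr, the growth hormone receptor gene, was at -0.16 ± 0.32 (SE). The scaling moved the medians of these lists together with that of all genes. For the plasma protease inhibitors the median was -0.27 with library size alone, where that of all genes was -0.68, and -0.12 with hepatocyte-marker scaling, where that of all genes was -0.54. Under these scalings 6 and 7 of the 21 genes were above 0, against 622 and 912 of all 5945. For the plasma serine proteases the corresponding medians were -0.20 and -0.11, and for the secretory genes -0.23 and -0.09. Without p62S351E/+ mice 1 and 2 the medians were 0.11 for the plasma protease inhibitors, with 12 of 21 above 0, 0.04 for the plasma serine proteases and 0.03 for the secretory genes, against 0.01 for all genes tested. The median of the intracellular and tissue inhibitors was -0.13 without those mice.

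The promoters of 9 of the 10 genes were in the RefSeq table for GRCm38.p6, Serpina3k being the exception. In the 300 bases from 250 before to 50 after the start, GTTAAT, the core of a site of the hepatocyte factor HNF1, occurred on either strand in 8 of the 9, all but Serpina3n, against 7.10% of 32851 promoters. CCAAT occurred in 6 of the 9 (37.4% of all promoters), and in the 5 alpha-1-antitrypsin promoters a copy of it, on the other strand, shares a base with GTTAAT. These counts do not come from independent sequences. The 5 alpha-1-antitrypsin promoters were 91.7% to 98.4% identical in pairs, and those of Mug1 and Mug2 were 96.1% identical. The longer HNF1 palindrome, made of GTTAAT and its complement with any base between them, occurred in none of the 9 (0.00913% of all promoters). The NRF2 core TGACNNNGC (12.4% of all promoters), the STAT motif TTCNNNGAA (8.30%) and TATAAA (13.6%) occurred in 0 of the 9 on either strand. The macroglobulin promoters are printed because Mug1 and Mug2 are copies of each other and differed in their fold changes. Each run of 150 bases is on the strand of the gene and ends before the first exon, and capitals mark GTTAAT or, where it lies on the other strand, its complement ATTAAC.
Mug1 (chr6:121838368-121838517, plus strand): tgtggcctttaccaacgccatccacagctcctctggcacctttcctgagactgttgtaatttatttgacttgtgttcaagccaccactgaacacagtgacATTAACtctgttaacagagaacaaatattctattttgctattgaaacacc
Mug2 (chr6:122006597-122006746, plus strand): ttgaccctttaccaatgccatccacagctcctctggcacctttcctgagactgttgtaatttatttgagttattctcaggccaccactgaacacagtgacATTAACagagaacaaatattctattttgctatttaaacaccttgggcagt
Pzp (chr6:128526750-128526899, minus strand): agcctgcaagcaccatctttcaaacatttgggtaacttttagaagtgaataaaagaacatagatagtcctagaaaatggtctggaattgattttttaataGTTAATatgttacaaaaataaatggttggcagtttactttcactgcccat

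The Mug1 and Mug2 stretches differed at 11 of 141 aligned bases, and Mug2 lacked a run of 9 bases that Mug1 has in this alignment. Over the whole promoters Mug1 and Mug2 were 96.1% identical and Mug1 and Pzp 46.8%. A match to these letters is a description of the sequence, and their absence says only that they are not in this window.

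Genes outside the 10 whose log2 normalized counts followed the family sums most closely over the 6 mice were sought among 696 tested genes with a mean of at least 50 normalized counts. The measure was the root mean square difference after each gene's mean was subtracted. For the alpha-1-antitrypsin sum these were Pdia3 at 0.094, Scp2 at 0.099 and Apon at 0.11. For the sum of Mug1, Mug2 and Pzp the nearest were Alas1 at 0.11 and Prodh2 at 0.13. For Serpina1e, searched after its pattern had been seen, the nearest gene was Car3 at 0.81, followed by Fabp1 at 0.87 and Mup3 at 0.93, so no gene followed it closely. Mup3, a major urinary protein gene, had 80.2, 17.1 and 194 normalized counts in p62+/+ mice, against 7.62, 261 and 5.42 in p62S351E/+ mice, low in the same 3 mice as Serpina1e. These are descriptions over 6 libraries that share their scaling.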

How the data were processed

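Liver RNA of the 6 mice was depleted of ribosomal RNA and sequenced as 75-base single-end reads. STAR alignment to mm10 and gene-level estimation with RSEM were done by the authors, who deposited the resulting expected counts without normalization. The submitters' processing notes also name Trim Galore and DESeq2. Tool versions and the gene annotation were not given in the sources used here. Groups and replicate numbers came from the sample labels, which describe separate mice.

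Expected counts were rounded to whole numbers and tested on the whole table in edgeR 4.0.16 (R 4.3.3). After filterByExpr (minimum count 10) and TMM scaling, robust dispersions were estimated and the quasi-likelihood test was run with legacy set to FALSE. Benjamini-Hochberg adjustment covered 5945 genes. Standard errors were taken as |log2FC| over the root of the F statistic. Sums over copies were added before rounding and put into the same fit, and they received no p. Normalized counts are expected counts over the TMM library size, relative to its geometric mean. On counts simulated for this comparison (5915 genes tested, 198 of them changed by a log2FC of 2 up or down), the test recovered 96.0% of the changed genes, and 4.52% of its 199 calls were false. These rates belong to the simulated counts and to changes of that size. In the data, calls over all genes depended on single mice, as given below.

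Alternatives were DESeq2 1.42.0, limma-voom (limma 3.58.1), the legacy method, other scalings, filters, thresholds and rounding, a block for the replicate number, a covariate for Xist, and fits without certain mice. Sequences were aligned with MAFFT 7.526. The named genes were the 10 inhibitor genes, each called gene and the 2 most abundant genes of each list, and the 3 genes nearest in pattern to each of 2 sums. One gene that this rule names is not reported here. The genes and lists were chosen with earlier results of these data known. The spread between mice limits each value, as does counting error for low counts such as those of Mug2.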

Additional observations from a re-analysis of the deposited data

How the results depend on the processing

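Mug2 had a negative log2FC in each of 20 alternatives. Mug1 and Mug2, 2 genes, were called lower when genes needed at least 10 counts in every library, and 0 at an adjusted p below 0.01. In the fits that left out 1 mouse, 0 to 1 were called lower and 0 to 1 higher (Serpina3n), and log2FC ran from -2.43 to -1.81 for Mug2, -0.12 to 0.71 for Serpina1a, -0.57 to 0.27 for Serpina1c, -0.015 to 0.37 for Serpina1d, -0.16 to 0.49 for the Serpina1 sum, -1.60 to -0.60 for the Serpina3k and Serpina3n sum, -1.15 to -0.64 for Mug1 and Mug2, -0.41 to 0.01 with Pzp and -1.18 to -0.65 with Mug-ps1, while the Serpina1d share moved by -1.92 to 2.37 percentage points. The cause of these changes was not tested.

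With library size alone, log2FC was -0.24 for Serpina1a, -0.74 for Serpina1c, -0.50 for Serpina1d, -0.21 for Pzp, -0.44 for the Serpina1 sum, -1.63 for Mug1 and Mug2, -0.89 with Pzp and -1.67 with Mug-ps1. With hepatocyte-marker scaling these were -0.23, -0.70, -0.40, -0.11, -0.38, -1.48, -0.76 and -1.50, and the Serpina3k and Serpina3n sum was at -1.60. Without p62S351E/+ mice 1 and 2, Serpina1a was at -0.17, Serpina1c at -0.77 and Serpina1d at -0.18. In the same fit the Serpina1 sum was at -0.26 and the sum of Mug1, Mug2 and Pzp at -0.57. The Serpina1d share differed by 0.95 percentage points without those mice. With all mice kept and counts divided by transcript length, that share differed by 0.21 points. With the Xist covariate Serpina1a, Serpina1c and Serpina1d were at -0.053, -0.63 and -0.092, and with at least 10 counts in every library Serpina1c and Serpina1d were at -0.28 and -0.059. Serpina1c was also at -0.022 with DESeq2 and with its size factors, -0.13 with limma-voom, -0.027 with upper-quartile factors, -0.032 with no filter, and -0.058 with Rn45s, Lars2 and Mir6236 left out.

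Over all genes, higher and lower calls were 57 and 11 with DESeq2, 122 and 13 with limma-voom, 12 and 2 with library size alone, 79 and 10 with no filter, 70 and 29 with at least 10 counts in every library, 27 and 2 with the Xist covariate, 72 and 23 without p62S351E/+ mice 1 and 2, 333 and 975 without p62S351E/+ mouse 3, and 16 to 29 and 1 to 4 without another mouse.

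The labels did not say whether the replicate numbers pair the mice. Deviations of same-numbered mice correlated across genes at 0.071, -0.085 and 0.00035, and those of differently numbered mice between -0.093 and 0.093. These ranges are alike, so the check shows no pairing but cannot exclude it. With the replicate block 0 of the 10 genes were called, against 1 without it, with Mug2 at -2.20 (edgeR adjusted p = 0.135) and Serpina1c at -0.14, and over all genes 18 were called higher and 1 lower.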
